A study of Caenorhabditis elegans with 12 samples.

Results

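The *lys* genes of *Caenorhabditis elegans* are the 10 lysozyme genes *lys-1* to *lys-10*, and all 10 were found by symbol among the 46934 genes of the count table. Lysozymes cut the peptidoglycan of bacterial cell walls. The products of this family resemble the lysozymes of protozoa, while the nematode also has a separate set of invertebrate-type lysozymes, the *ilys* genes. Several *lys* genes are known to be expressed in the intestine, where bacteria are both food and a possible pathogen, and *lys-1*, *lys-7* and *lys-8* are known to be induced by the bacterial pathogen *Serratia marcescens*. Genetic work in *C. elegans* has placed *lys-7* and *lys-8* among the genes that depend on the FOXO factor DAF-16 or on the TGF-beta ligand DBL-1, while the p38 kinase PMK-1 directs another branch of intestinal immunity.

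RNA of whole day 1 adults was measured in 4 groups of 3 libraries. Wild-type animals (N2) and *hsf-1*(*sy441*) mutants (the outcrossed strain TTV450) were held at 20 °C as controls, or were exposed to 35 °C for 30 min and sampled after a further 1 h at 20 °C, with *Escherichia coli* OP50 as the usual food. HSF-1 is the heat shock transcription factor, and *sy441* is regarded as an allele whose product has no transactivation domain, so the allele is not a deletion and the level of *hsf-1*, at 123 ± 47.8 CPM in control N2 and 92.9 ± 14 CPM in control mutants (SD, n = 3), cannot check the genotype labels. The comparisons asked how the mutation and the heat shock, alone and together, went with the level of stress and immunity genes. Libraries came from whole animals, gonads and retained embryos included, so that more cells of a type and more RNA per cell cannot be told apart. The replicates were labelled biological, but separate cultures were not stated, and p-values therefore measure the spread between these samples.

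Total counts per library ran from 68188334 to 109248499. Values are given as CPM, counts relative to the total of the library after TMM scaling. Replicates differed by far more than sampling of the reads: over 36 combinations of a tested member and a group, the chi-square of the 3 counts per degree of freedom was between 1.87 and 18540, with a median of 334. Of the 10 members, 9 had enough counts for the test across 17946 genes, and *lys-9* did not. Genes with a Benjamini-Hochberg adjusted p under 0.05 in edgeR's quasi-likelihood test were called higher or lower. Differences are given as log2 fold changes ("log2 difference"), SE is their standard error, and intervals are 95% confidence intervals.

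The family fell into 3 parts by position in the WBcel235 annotation. On chromosome V, *lys-1* (WBGene00003090, from 10277904 to 10279056), *lys-2* (WBGene00003091, from 10280307 to 10281474) and *lys-3* (WBGene00003092, from 10282100 to 10283544) were direct neighbours, with gaps of 1250 and 625 bases and no protein-coding gene between them. On chromosome IV, *lys-4* (WBGene00003093, from 11621429 to 11623174), *lys-5* (WBGene00003094, from 11624252 to 11625582) and *lys-6* (WBGene00003095, from 11626910 to 11627947) formed another cluster, all on the minus strand, with gaps of 1077 and 1327 bases. The other members stood alone: *lys-7* (WBGene00003096) on chromosome V from 3481432 to 3482600, *lys-8* (WBGene00003097) on chromosome II from 5586178 to 5587651, *lys-9* (WBGene00003098) on chromosome I from 12454853 to 12455826, and *lys-10* (WBGene00003099), which has 1 exon, on chromosome IV from 8332826 to 8333518. The coding sequences of *lys-1*, *lys-2*, *lys-3*, *lys-7* and *lys-8* had 298, 279, 301, 283 and 286 codons, and those of *lys-4*, *lys-5*, *lys-6*, *lys-9* and *lys-10* had 214, 215, 214, 223 and 230.

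In wild type at 20 °C, *lys-4* was the most abundant member per length, with 352 ± 15.3 CPM per kb of exon (SD, n = 3), above *lys-1* with 176 ± 12.6. *lys-7*, *lys-8* and *lys-2* followed with 74.9 ± 18.0, 69.3 ± 20.0 and 57.5 ± 15.5 CPM per kb, and the libraries of these 3 genes overlapped. *lys-10*, *lys-6* and *lys-5* lay between 5.18 and 8.85 CPM per kb in the mean and also overlapped, *lys-3* was at 0.817 ± 0.385, and *lys-9* had no count. The top of the order was thus held by *lys-4* and *lys-1*, each apart from all members below it in these 3 libraries.

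The order was another one in the mutants at 20 °C. There *lys-1* had the highest mean, 622 CPM per kb, followed by *lys-7* (349.8), *lys-2* (239), *lys-8* (237) and *lys-4* (192). The libraries of *lys-1* overlapped those of *lys-7* and *lys-2* and lay above all those of *lys-8* and *lys-4*, and the other 4 genes overlapped each other. Taken as a share of the length-scaled sum over the family, *lys-4* made up 44.5 to 48.3% in wild type and 1.45 to 26.1% in the mutants, and *lys-7* made up 7.77 to 11% and 18.5 to 23.3%. Shares of 1 sum are bound to each other, and no test was made of them.

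**Figure D1:**
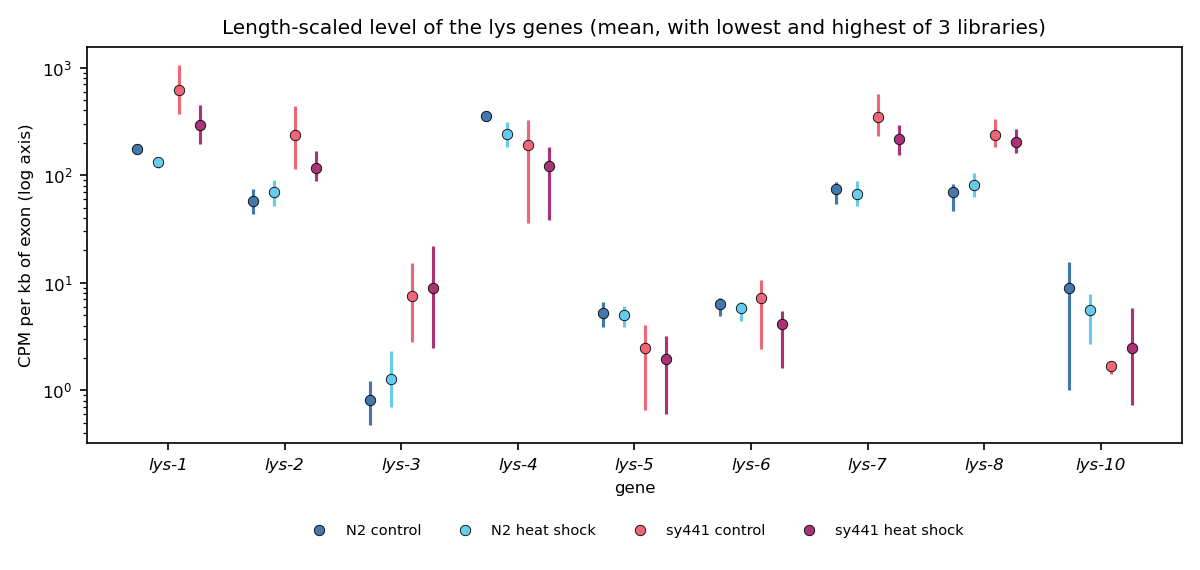
Length-scaled level of the 9 *lys* genes with enough counts, as CPM per kb of exon on a log axis, for the 4 groups. Points are means and vertical lines run from the lowest to the highest of 3 libraries; *lys-4* has the highest mean in both wild-type groups (352 CPM per kb at 20 °C), and *lys-1* has it in both mutant groups (622 CPM per kb at 20 °C).

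Without heat shock, 4 members stood higher in the *sy441* animals than in N2, by 3.42 to 4.67-fold. They were the neighbours *lys-1* and *lys-2* on chromosome V and the single genes *lys-7* and *lys-8*. None of the 9 tested members was called lower. Among all tested genes, 6.24% were called higher and 0.591% lower in this comparison, and the median log2 fold change was 0.13 over all tested genes and 1.77 over the 9 members. *lys-4* and *lys-5*, of the chromosome IV cluster, and *lys-10* had negative log2 fold changes that were not called.

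*lys-7*, known as a target of DAF-16, had 75.1, 78.7 and 49 CPM in wild type and 517, 221 and 208 CPM in the mutants. The lowest mutant library thus lay well above the highest wild-type library. The log2 difference was 2.22 (SE 0.379, interval 1.41 to 3.04, adjusted p = 0.00564 by edgeR), the largest among the 4 called members.

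*lys-8*, which is known to depend on DBL-1 signalling, had 76.2, 80.4 and 45.0 CPM in wild type and 327, 178 and 184 CPM in the mutants. The groups did not overlap here either, and the wild-type library that was low for *lys-7*, replicate 3, was also low for *lys-8*. The log2 difference was 1.77 (SE 0.322, adjusted p = 0.00795 by edgeR). The last 38 bases of *lys-8* overlap the end of *C17G10.13* on the other strand (chromosome II from 5587614 to 5589790), and the strand setting of the counting is not given in the sources used here. *C17G10.13* had 59.1 ± 6.35 CPM in wild type and 43.3 ± 5.77 CPM in the mutants (SD, n = 3; log2 difference -0.45, adjusted p = 0.137 by edgeR), and was not called. The part of its reads in the *lys-8* counts was not tested.

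In the cluster on chromosome V, *lys-1* had 159, 182 and 163 CPM in wild type and 1016, 356 and 416 CPM in the mutants (log2 difference 1.82, SE 0.387, adjusted p = 0.0163 by edgeR). Its neighbour *lys-2* had 40.8, 50.6 and 69.2 CPM in wild type and 409, 106 and 152 CPM in the mutants (log2 difference 2.05, SE 0.447, adjusted p = 0.0189 by edgeR). In both genes mutant replicate 1 stood far above the other 2 mutant libraries. The third gene of the cluster, *lys-3*, was much rarer, with 0.528, 0.840 and 1.38 CPM in wild type and 17, 3.14 and 4.92 CPM in the mutants. Its groups did not overlap and its log2 difference of 3.19 was the largest of the family in size, but with an SE of 0.905 it was not called (interval 1.24 to 5.14, adjusted p = 0.0515 by edgeR). It was called with DESeq2 (log2 fold change 3.06, adjusted p = 0.00179).

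The cluster on chromosome IV showed no call. *lys-4* had 290, 278 and 266 CPM in wild type and 28.1, 259 and 166 CPM in the mutants, so that each mutant library lay below each wild-type library, by little in replicate 2 and by far in replicate 1 (log2 fold change -0.88, interval -2.21 to 0.46, adjusted p = 0.427 by edgeR). *lys-5* had 3.46, 2.73 and 4.68 CPM in wild type and 0.458, 2.82 and 1.93 CPM in the mutants (log2 difference -1.06, adjusted p = 0.316 by edgeR). *lys-6* had 4.79, 3.50 and 5.09 CPM in wild type and 1.72, 7.57 and 5.99 CPM in the mutants (log2 fold change 0.19, interval -0.92 to 1.30, adjusted p = 0.880 by edgeR). In all 3 genes it was mutant replicate 1 that was low.

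*lys-10* had 6.85, 10.8 and 0.702 CPM in wild type and 1.29, 0.980 and 1.21 CPM in the mutants. The mutant libraries agreed closely, and wild-type replicate 3 fell below all of them, so the groups overlapped. The log2 difference was -2.40 (SE 0.902, adjusted p = 0.121 by edgeR). Without that wild-type library it was -2.91 and *lys-10* was called lower (adjusted p = 0.0452 by edgeR).

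**Figure D2:**
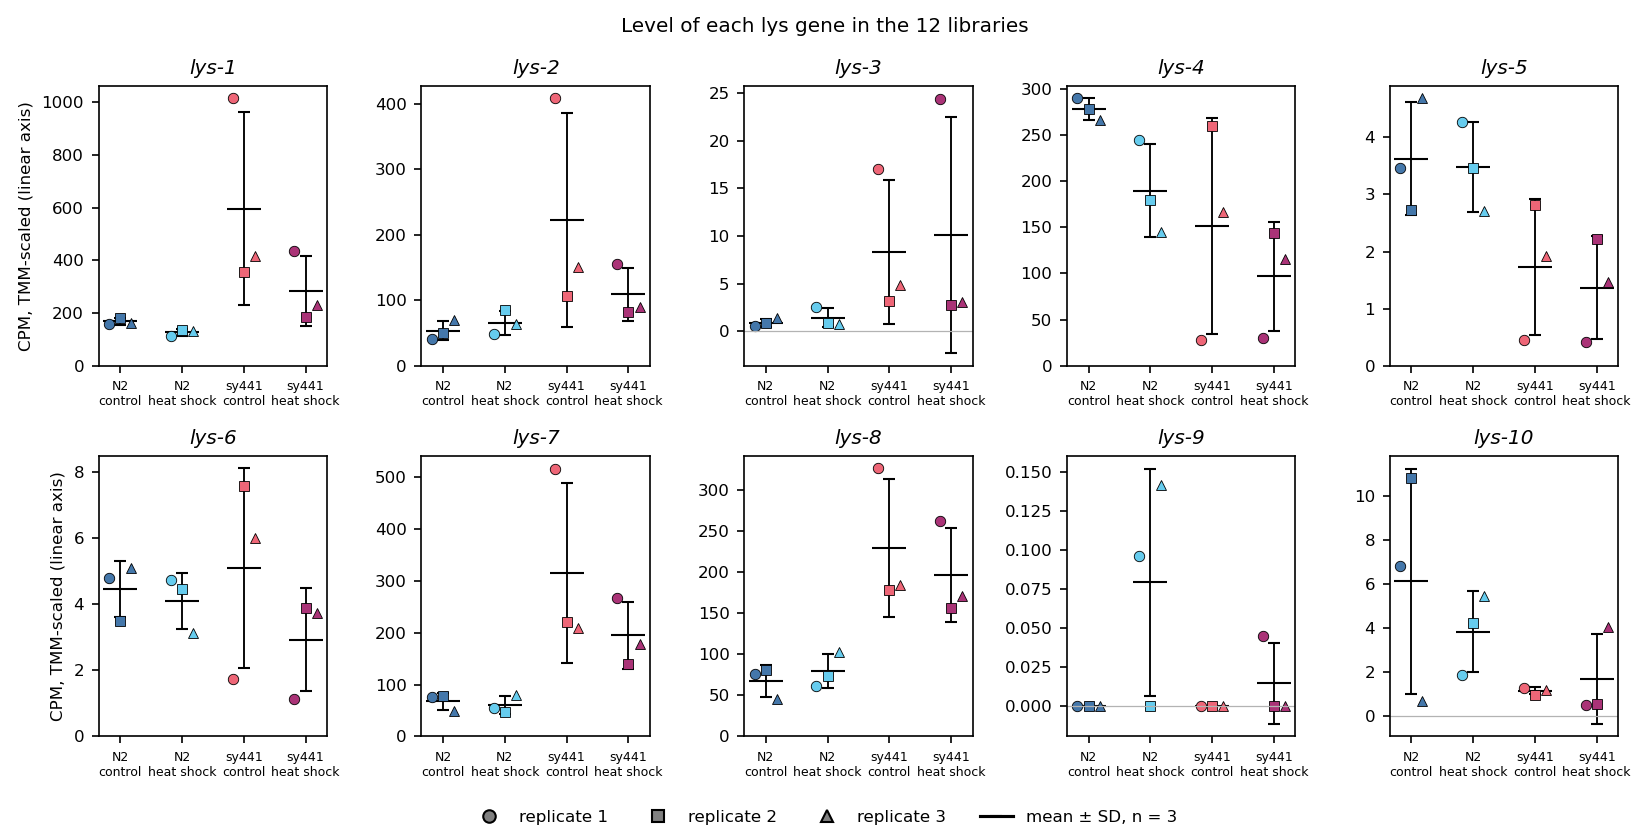
CPM (linear axes) of each of the 10 *lys* genes in the 12 libraries, by group; symbols mark the replicate number, horizontal bars the mean and whiskers the SD of 3 libraries. Mutant replicate 1 is the highest of its group for *lys-1*, *lys-2*, *lys-3*, *lys-7* and *lys-8* and the lowest for *lys-4*, *lys-5* and *lys-6*, both at 20 °C and after heat shock.

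Counting members without a model, the 3 mutant and 3 wild-type libraries did not overlap in 6 of the 9 tested members at 20 °C (5 higher and *lys-4* lower), against 29.8% of all tested genes. The 6 were *lys-1*, *lys-2*, *lys-3*, *lys-4*, *lys-7* and *lys-8*. All 5 members with 279 codons or more were in the higher set.

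The calls at 20 °C rested on 1 library to different degrees. *lys-7* was called in all 21 alternatives, with a log2 fold change between 1.48 and 2.45. *lys-8* was called in 20 of 21, and without mutant replicate 1 at 20 °C its log2 fold change was 1.24 (adjusted p = 0.0885 by edgeR). Without the same library, *lys-1* had a log2 fold change of 1.01 (adjusted p = 0.128 by edgeR) and *lys-2* one of 1.09 (adjusted p = 0.131 by edgeR), both still positive and neither called. Their calls also ended without wild-type replicate 1 (1.57 for *lys-1* and 1.67 for *lys-2*) or replicate 2 (1.64 and 1.78), and that of *lys-1* without wild-type replicate 3 (1.84, adjusted p = 0.0542 by edgeR). With wild-type control 3 and heat shock 1 both left out, *lys-1* (1.80, adjusted p = 0.0723 by edgeR) and *lys-2* (2.28, adjusted p = 0.0621 by edgeR) were not called, and *lys-10* was called lower (-2.93, adjusted p = 0.0449 by edgeR).

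Replicate 1 of the mutants stood apart in the whole family. In both mutant groups it was the highest library for 5 of the 9 tested members (*lys-1*, *lys-2*, *lys-3*, *lys-7* and *lys-8*) and the lowest for 3 (*lys-4*, *lys-5* and *lys-6*), and only *lys-10* did neither. Ribosomal RNA took 7.41% of the counts in this library at 20 °C and 7.34% after heat shock, against 1.01 to 4.21% in the other 10 libraries, over 22 annotated rRNA genes. The part of that difference in the *lys* values was not tested. With both libraries left out, *lys-1*, *lys-7* and *lys-8* were still called higher at 20 °C, and *lys-2* was not (log2 difference 1.16, adjusted p = 0.0969 by edgeR).

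**Figure D3:**
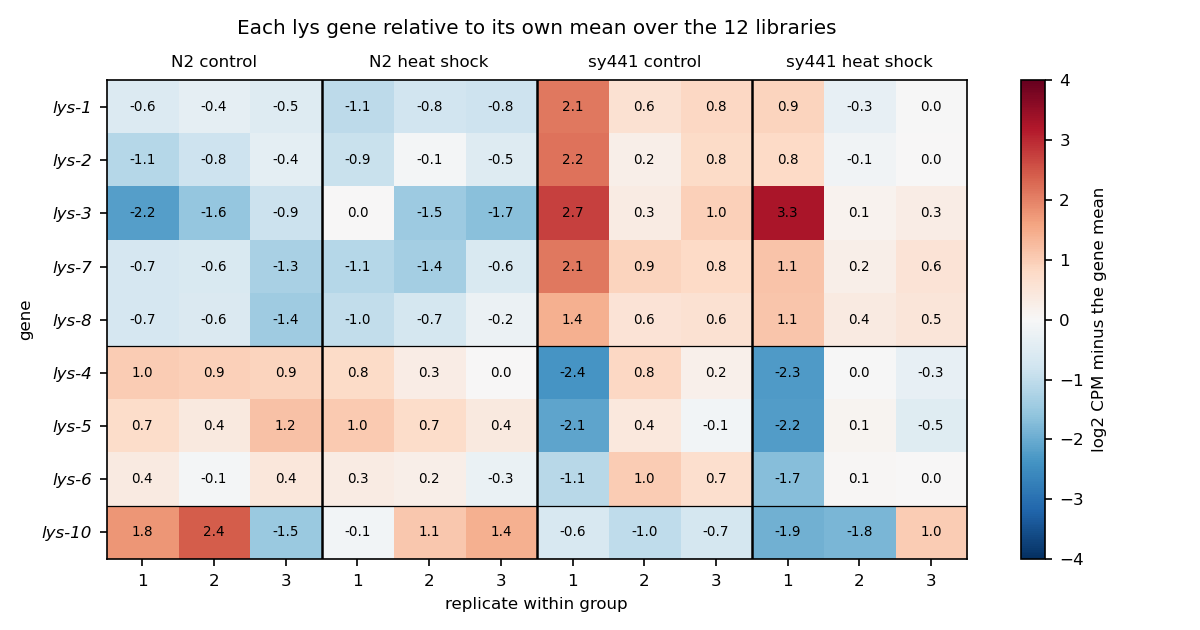
Log2 CPM of the 9 tested *lys* genes in the 12 libraries, each minus the gene's mean over all libraries; red is above and blue below that mean. The upper 5 genes are above their mean in all 3 mutant libraries at 20 °C, and *lys-4*, *lys-5* and *lys-6* are lowest in replicate 1 of both mutant groups.

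Members differed in how alike their patterns over the 12 libraries were, measured as the root mean square difference of centred log2 CPM. The closest were *lys-7* and *lys-8* (0.32), *lys-4* and *lys-5* (0.32) and *lys-1* and *lys-2* (0.34), the last 2 being pairs of direct neighbours. *lys-6* lay at 0.59 from *lys-4*. *lys-3* lay at 1.03 from its neighbour *lys-2*, and the widest distance was 2.82 between *lys-3* and *lys-10*. These are descriptions, since the points share libraries, depth and groups.

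Among the tested genes outside the family, the 3 closest to *lys-8* were the aspartyl protease gene *asp-5* (0.15), *M28.10* (0.16) and *H34I24.2* (0.19), closer than any *lys* gene. For *lys-7* they were *T01D3.6* (0.30), the nuclear hormone receptor gene *nhr-132* (0.30) and *K08D8.4* (0.31), and for *lys-1* *K06G5.1* (0.26), *R08E3.1* (0.27) and *M04G7.3* (0.27). For *lys-2* they were the glutamate receptor gene *glr-5* (0.31), *dod-17* (0.33) and the cytochrome P450 gene *cyp-33C7* (0.33). For *lys-4* they were *Y105C5A.508* (0.36), *T05E12.6* (0.37) and the folate transporter gene *folt-2* (0.39), all farther than its neighbour *lys-5*.

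After heat shock, 2 *lys* genes were higher in the mutants than in wild type, *lys-7* and *lys-8*, and none was called lower. The background in this comparison was 2.32% of all tested genes called higher and 0.379% called lower, with a median log2 fold change of 0.04 over all genes and 0.74 over the 9 members. The groups did not overlap in 6 of the 9 members, *lys-1*, *lys-3*, *lys-7* and *lys-8* with higher and *lys-4* and *lys-5* with lower values in the mutants, against 29.2% of all tested genes.

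*lys-7* had 54.8, 47 and 79.8 CPM in heat-shocked wild type and 266, 141 and 178 CPM in heat-shocked mutants (log2 difference 1.69, SE 0.372, adjusted p = 0.0300 by edgeR). *lys-8* had 61.4, 73.9 and 102 CPM in wild type and 263, 156 and 171 CPM in the mutants (log2 difference 1.31, SE 0.318, adjusted p = 0.0464 by edgeR). In both genes every mutant library was again above every wild-type library. Both calls lay near the threshold. Each ended in all 6 fits that left out 1 of the heat-shocked libraries, with log2 differences of 1.29 to 1.83 for *lys-7* and 0.94 to 1.42 for *lys-8*. That of *lys-7* also ended without N2 control 2 (1.55), and that of *lys-8* without N2 control 1 or 2 or any of the 3 mutant control libraries (1.17 to 1.30).

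The other members of the longer set had positive values that were not called after heat shock. *lys-1* had 113, 138 and 133 CPM in wild type and 434, 185 and 229 CPM in the mutants (log2 fold change 1.15, interval 0.33 to 1.97, adjusted p = 0.128 by edgeR). *lys-2* had 48.3, 84.5 and 63.4 CPM in wild type and 155, 81.7 and 90.4 CPM in the mutants, and its groups overlapped (log2 difference 0.74, adjusted p = 0.389 by edgeR). *lys-3* had 2.58, 0.896 and 0.778 CPM in wild type and 24.4, 2.78 and 3.13 CPM in the mutants (log2 difference 2.84, SE 0.887, adjusted p = 0.110 by edgeR). Its spread in the mutants came from replicate 1, as at 20 °C. With DESeq2, *lys-1* (log2 fold change 1.12, adjusted p = 0.0357) and *lys-3* (2.79, adjusted p = 0.00717) were called higher after heat shock.

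*lys-4* had 244, 179 and 145 CPM in heat-shocked wild type and 30.3, 144 and 116 CPM in heat-shocked mutants (log2 difference -0.97, adjusted p = 0.440 by edgeR), with the highest mutant library just under the lowest wild-type one. *lys-5* went from 4.27, 3.47 and 2.70 CPM to 0.420, 2.22 and 1.47 CPM (log2 difference -1.34, adjusted p = 0.263 by edgeR). Neither was called, and mutant replicate 1 was again the lowest in both. *lys-6* (log2 difference -0.49, adjusted p = 0.698 by edgeR) and *lys-10* (log2 difference -1.16, adjusted p = 0.528 by edgeR) overlapped between the genotypes.

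**Figure D4:**
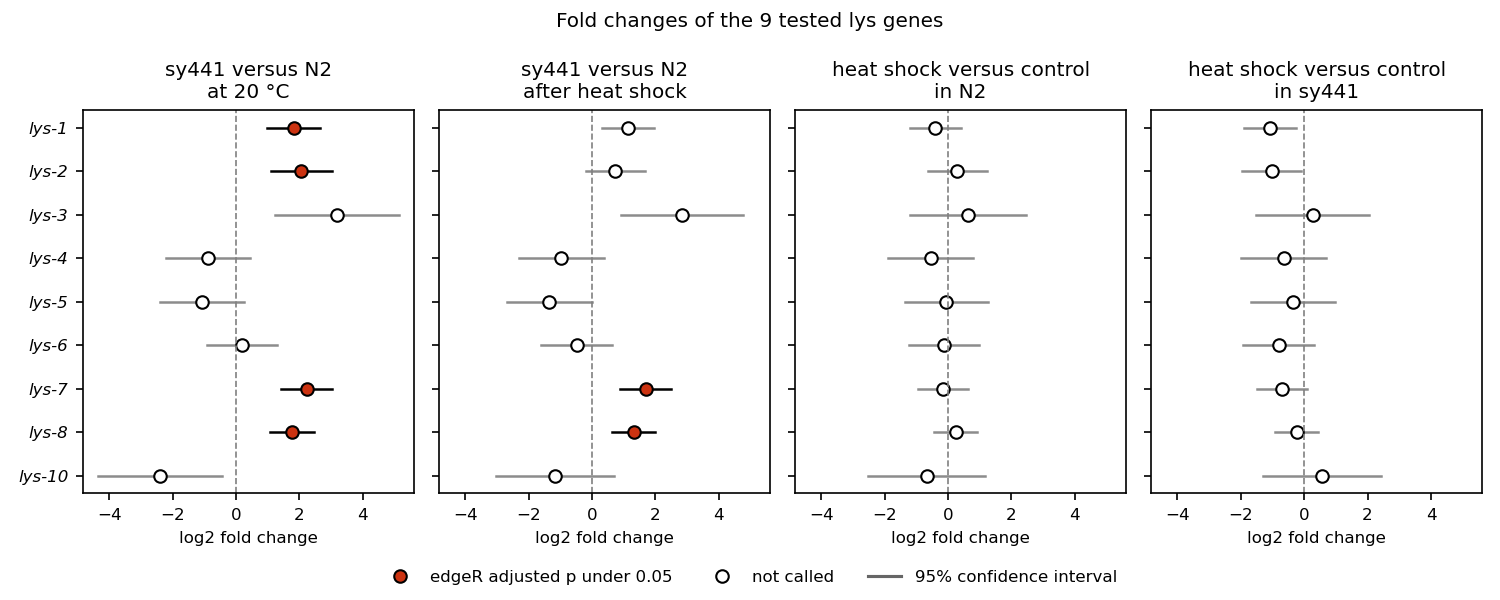
Log2 fold changes of the 9 tested *lys* genes in the 4 pairwise comparisons, from edgeR, with intervals; filled points had an adjusted p under 0.05. Only the genotype comparisons hold filled points, 4 at 20 °C and 2 after heat shock (*lys-7*, *lys-8*).

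Heat shock itself was followed by no called change of a *lys* gene in wild type. DESeq2 called none either, while edgeR called 1% of all tested genes. None of the 9 members had an unadjusted p under 0.05, against 7.88% of all tested genes. The log2 fold changes ran from -0.67 (*lys-10*) to 0.62 (*lys-3*). *lys-1* (-0.40, interval -1.21 to 0.41) and *lys-4* (-0.55, interval -1.88 to 0.77) were lower in each heat-shocked library than in each control library, as were 5.84% of all tested genes, and the remaining members overlapped. For *lys-7* (-0.16, interval -0.94 to 0.62) and *lys-8* (0.24, interval -0.44 to 0.91) the intervals stayed within 1 unit of the log2 scale on either side.

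In the mutants, no member was called after heat shock. The fit of all libraries called 0.568% of all tested genes in either direction, and DESeq2 called no member. *lys-1* (log2 fold change -1.08, adjusted p = 0.401 by edgeR) and *lys-2* (-1.03, adjusted p = 0.623 by edgeR) were the 2 members with an unadjusted p under 0.05, which 6.82% of all tested genes had. No member had groups that did not overlap, against 12% of all tested genes.

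Mutant libraries with the same replicate number deviated together (correlations of 0.20 to 0.34), and the groups were therefore also compared number by number. The labels do not state such a pairing. Heat-shocked over control, *lys-1* was at 0.427, 0.520 and 0.552 of its control level in replicates 1, 2 and 3, and *lys-2* at 0.380, 0.771 and 0.596. *lys-7* was at 0.516, 0.635 and 0.852. All 3 were below 1 in every pair, as were *lys-5*, *lys-6* and *lys-8*. Thus 6 of the 9 members were lower in all 3 pairs, against 18.2% of all tested genes. With the replicate number as a block in the fit of all libraries, 0 members were called for heat shock in the mutants, among 85 called genes. With the replicate number entered as a block and only the 6 mutant libraries fitted, an alternative chosen after seeing the data, *lys-1* (log2 difference -0.99, SE 0.124, adjusted p = 0.00276 by edgeR) and *lys-2* (-0.82, SE 0.170, adjusted p = 0.0318 by edgeR) were called lower, against 2.07% of the 17159 genes tested there, and *lys-7* was not (-0.59, adjusted p = 0.0538 by edgeR).

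The effect of heat shock was not shown to differ between the genotypes for any member. None of the 9 was called for the interaction of genotype and heat shock, by edgeR or by DESeq2, and edgeR called 0.0111% of all tested genes. None had an unadjusted p under 0.05, against 2.54% of all tested genes. The member nearest to it was *lys-2*, with log2 fold changes of 0.29 in wild type and -1.03 in the mutants and a difference of -1.31 (interval -2.63 to 0.0035, adjusted p = 1 by edgeR). For *lys-7* the difference was -0.54 (interval -1.64 to 0.57) and for *lys-8* it was -0.46 (interval -1.42 to 0.49). The smaller number of called members after heat shock than at 20 °C is therefore not a tested difference.

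*lys-9* had no count in any of the 6 control libraries. It had 8, 0 and 15 counts in heat-shocked wild type and 3, 0 and 0 in heat-shocked mutants. Pooled over the group, the 23 counts in heat-shocked wild type lay 6.6-fold above a floor of 3 counts in control wild type. The floor allows for counting error in the control zeros only. Error in the 23 counts and the spread between libraries are not covered. One of the 3 heat-shocked wild-type libraries had none, the gene did not pass the filter, and without a filter it was not called (adjusted p = 0.905 by edgeR).

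The summed level of the family gave the weight of these changes. It was 657, 687 and 604 CPM in wild type at 20 °C, 535, 535 and 536 CPM after heat shock, 2317, 1136 and 1140 CPM in the mutants at 20 °C and 1175, 717 and 796 CPM in heat-shocked mutants. The family thus took 0.0604 to 0.0715% of all counts in control wild type and 0.109 to 0.213% in control mutants. In wild type *lys-4* and *lys-1* held most of the sum.

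Some markers of the intestine were also higher in the mutants. Of 10 intestine markers, 5 were called higher at 20 °C and none lower, against 6.24% of all tested genes called higher. They were the esterase gene *ges-1*, the actin gene *act-5*, the intermediate filament genes *ifb-2* and *ifc-2* and the protease gene *asp-1*. The summed level of the 10 markers ran from 721 to 1254 CPM in control wild type and from 1840 to 2619 CPM in control mutants. After heat shock 2 of 10 were called higher, against 2.32% of all tested genes, with sums of 794 to 1225 CPM and 1637 to 1940 CPM. The sums were mostly *asp-1*, with 614 ± 213 CPM in control wild type and 1412 ± 263 CPM in control mutants (SD, n = 3). The peptide transporter gene *pept-1* had a negative log2 fold change at 20 °C (-0.35, adjusted p = 0.296 by edgeR). Each mutant library of *pept-1* lay below each wild-type library there, by little (highest mutant 43.45 CPM, lowest wild type 43.52 CPM). The sodium/proton exchanger gene *nhx-2* had negative values at 20 °C (-0.11, adjusted p = 0.878 by edgeR) and after heat shock (-0.86, adjusted p = 0.152 by edgeR). These differences of *pept-1* and *nhx-2* were not called. None of the 10 markers was at 0 in any library.

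Set against the summed intestine markers of the same library, *lys-7* was at 0.0627 to 0.0679 in control wild type and at 0.101 to 0.197 in control mutants, and *lys-8* at 0.0624 to 0.0657 and at 0.0893 to 0.125. These ratios did not overlap between the genotypes, and neither did those after heat shock (0.0455 to 0.0691 and 0.0844 to 0.137 for *lys-7*, 0.0716 to 0.0836 and 0.0940 to 0.135 for *lys-8*). The ratios of *lys-1* (0.138 to 0.227 and 0.194 to 0.388) and *lys-2* (0.0352 to 0.0960 and 0.0576 to 0.156) at 20 °C overlapped. So did those of *lys-3* (0.00046 to 0.0019 and 0.0017 to 0.0065). As the marker sum was mostly *asp-1*, all these ratios depend largely on that gene. *lys-4* was at 0.222 to 0.368 of the marker sum in control wild type and at 0.0107 to 0.141 in control mutants. *lys-5* (0.0022 to 0.0065 and 0.00017 to 0.0015) and *lys-10* (0.00097 to 0.0086 and 0.00049 to 0.00059) were also lower in control mutants. Like those of *lys-4*, their ratios did not overlap at 20 °C. The share of all tested genes whose ratios do not overlap was not computed, so the ratios are descriptions only.

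Markers of muscle and sperm were mostly higher in the mutants as well. Of 8 body wall muscle markers 5 were called higher at 20 °C (sums of 1127 to 1743 CPM in wild type and 2658 to 3371 CPM in the mutants). Of 10 sperm markers 9 were (1.21 to 7.94 CPM and 50.4 to 116 CPM), against 6.24% of all tested genes. *msp-3*, *msp-49* and *msp-50* were at 0 in at least 1 control wild-type library. The muscle marker *tni-1* had a negative log2 fold change at 20 °C that was not called (-0.20, adjusted p = 0.808 by edgeR). None of 8 oocyte and embryo, 8 neuron or 6 hypodermis markers was called at 20 °C or after heat shock. The oocyte and embryo sums spread widely in control wild type, at 9885, 8561 and 3643 CPM in replicates 1, 2 and 3. In control mutants they ran from 6046 to 6808 CPM. The hypodermis means went in both directions at 20 °C. That of *col-19* was 171 CPM in wild type and 360 CPM in the mutants, and that of *rol-6* 9.48 and 2.69 CPM. The part of these tissues in the *lys* values was not tested.

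**Figure D5:**
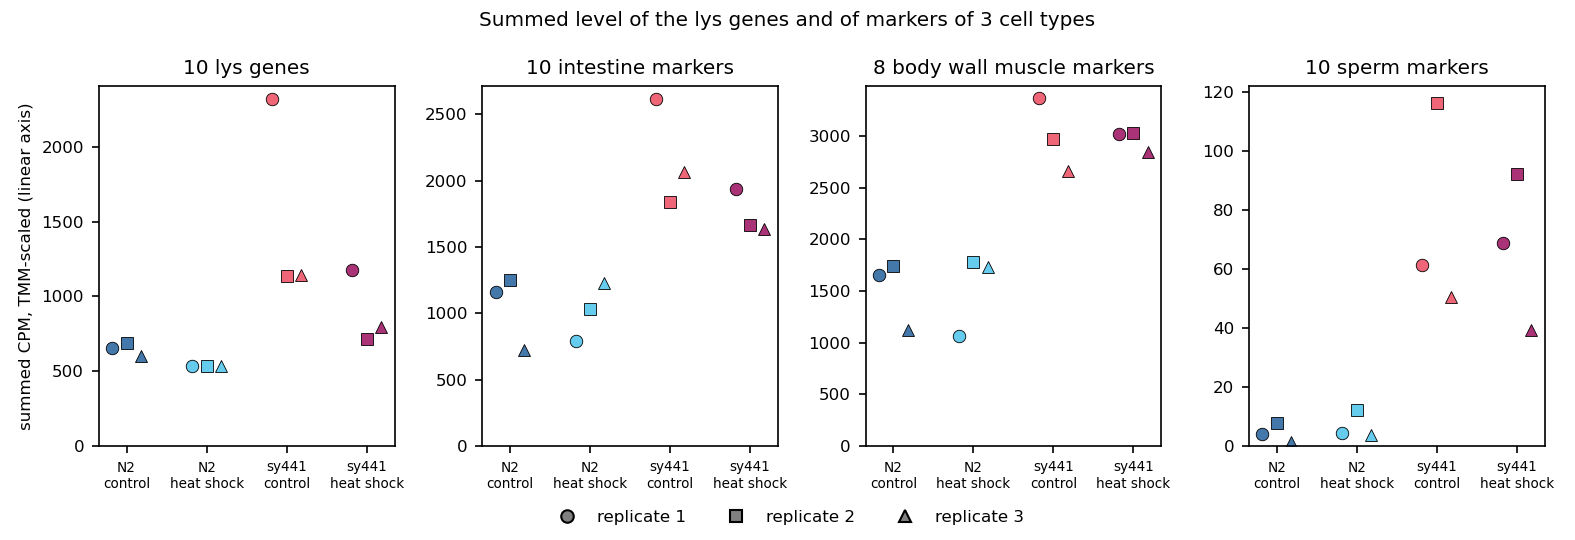
Summed CPM (linear axes from 0) of the 10 *lys* genes and of markers of intestine, body wall muscle and sperm in each library, by group; symbols mark the replicate number. All 4 sums are higher in each mutant library than in each wild-type library of the same treatment, and mutant replicate 1 has the highest *lys* sum of its group (2317 and 1175 CPM).

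No invertebrate-type lysozyme gene was called. Of the 6 *ilys* genes 4 were tested, in the same 5 comparisons as the *lys* genes. *ilys-5* made up nearly all of their level, with 758, 778 and 683 CPM in control wild type and 569, 1027 and 886 CPM in control mutants (log2 fold change 0.16, interval -0.30 to 0.62, adjusted p = 0.717 by edgeR). It was lower in each heat-shocked than in each control library, at 432 to 460 CPM in wild type (log2 difference -0.73, adjusted p = 0.190 by edgeR) and 430.0 to 446 CPM in the mutants (-0.92, adjusted p = 0.0914 by edgeR), neither of which was called. Mutant replicate 1, the highest library for *lys-7*, was the lowest of its group for *ilys-5*.

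*ilys-3*, which in the intestine and pharynx is known to help break down bacteria, had 0, 10 and 6 counts in control wild type and 39, 23 and 36 counts in control mutants (log2 fold change 2.48, interval -0.32 to 5.28, adjusted p = 0.262 by edgeR). *ilys-2* (0.24, adjusted p = 0.915 by edgeR) and *ilys-4* (0.33, adjusted p = 0.750 by edgeR) had small log2 fold changes with wide intervals. *ilys-1* and *ilys-6* had too few counts to be tested.

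Of 25 genes of the pathways known to act on lysozyme and immunity genes, 3 were called higher at 20 °C, against 6.24% of all tested genes, and none lower. They were *tir-1*, the adaptor at the head of the p38 cascade (12.5 ± 0.138 and 29.1 ± 11 CPM, SD, n = 3; log2 difference 1.22, adjusted p = 0.0423 by edgeR), *zip-2*, a transcription factor of the response to *Pseudomonas* (0.92, adjusted p = 0.0377 by edgeR), and *sma-4*, a Smad of the DBL-1 pathway (1.21, adjusted p = 0.0266 by edgeR). After heat shock only *sma-4* was called (1.24, adjusted p = 0.0358 by edgeR), against 2.32% of all tested genes, and no gene of the list was called for heat shock in either genotype.

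The best known regulators were not called. These are RNA levels, and the activity of the proteins was not measured in these data. *daf-16* had a log2 fold change of 0.14 at 20 °C (interval -0.42 to 0.70), *pmk-1* one of -0.08 (-0.53 to 0.37) and *dbl-1* one of -0.06 (-0.54 to 0.41). The intestinal GATA factor gene *elt-2* had 5.45, 4.66 and 4.38 CPM in control wild type and 15.5, 7.66 and 9.07 CPM in control mutants. These groups did not overlap, which held for 29.8% of all tested genes, and *elt-2* was not called (log2 difference 1.15, adjusted p = 0.0835 by edgeR). For *elt-2*, mutant replicate 1 was the highest mutant library at 20 °C and the lowest after heat shock (3.96 CPM). For *lys-7* it was the highest in both mutant groups (266 CPM after heat shock). A relation of *elt-2* to the *lys* levels was not tested.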

How the data were processed

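The deposited table holds raw counts per gene, made by the authors with HISAT2 and HTSeq on WBcel235 after FastQC (their notes also name edgeR). Versions, the strand setting and the treatment of reads with several matches are not given in the sources used here. Low genes were removed with filterByExpr, libraries were scaled by TMM, and 1 quasi-likelihood model with a mean for each of the 4 groups and robust estimation was fitted in edgeR 4.0.16 (R 4.3.3). The SE was derived from the F value. Log2 CPM had a prior count of 2. The fit was also run on simulated counts with known fold changes. That simulation held no library that stood apart from its group, and its outcome is not used here. Alternatives were DESeq2 1.42.0, RLE factors, no filter, no robust estimation, legacy=FALSE, only the groups compared, a minimum log2 fold change of 1, the replicate number as a block, and leaving out 1 library or 2.

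The members and all lists were chosen with earlier results of these data known. Named were every member, all *ilys* genes, called genes of the regulator list with *daf-16*, *elt-2*, *pmk-1* and *dbl-1*, and, for each member with a mean of at least 10 CPM, the 3 tested genes outside the family most like it. Sequences were not used here. Deviations of same-numbered mutant libraries from their group means correlated at 0.20 to 0.34 in every pair and were taken as paired, which the labels do not state. In each other combination of groups at least 1 such correlation was below 0. The highest correlation of all joined libraries of different numbers, wild-type control 3 and heat shock 1 (0.54).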

Additional observations from a re-analysis of the deposited data

How the results depend on the processing

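At 20 °C the log2 fold changes of 8 of the 9 tested members kept their sign in all 21 alternatives, *lys-6* being the exception. DESeq2 called 6 members there (adding *lys-3* higher and *lys-10* lower) among 2580 genes, against 4 among 1226. After heat shock it called 4 (adding *lys-1* and *lys-3* higher) among 1517 genes, against 2 among 485. After heat shock legacy=FALSE called 982 genes, and at 20 °C only the groups compared gave 3 members among 341 genes. Without N2 control 3 and heat shock 1, no member (0) was called after heat shock, and without mutant control 1 and heat shock 1 it was 1. Leaving out each library in turn gave 1 to 5 called members at 20 °C, 0 to 2 after heat shock and 0 in the other 3 comparisons. With the replicate number as a block in the fit of all libraries, 5 members were called at 20 °C (adding *lys-3*, 2.51, edgeR adjusted p = 0.0427) and 1 after heat shock (*lys-7*). For heat shock in the mutants, the same fit called 0 members among 85 genes. This block covers all groups, while only the mutant groups were taken as paired by number, which the labels do not state. In the mutant libraries alone with this block, 2 were called after heat shock (619 genes against 102), while *lys-3* (-0.072) and *lys-10* (-0.11) turned negative. Other changes of sign touched no called value. Without the 2 mutant libraries, *lys-3* was at -0.45 for heat shock in the mutants, and without the 2 wild-type libraries *lys-4* was at 0.16 for the interaction. With each library left out, *lys-6* ranged from -0.21 to 0.42 at 20 °C. For heat shock in wild type, *lys-3* ranged from -0.18 to 1.08, *lys-5* from -0.31 to 0.19, *lys-6* from -0.36 to 0.0085 and *lys-8* from -0.10 to 0.32. For heat shock in the mutants, *lys-3* ranged from -1.43 to 1.27, *lys-5* from -0.90 to 0.16, *lys-8* from -0.44 to 0.084 and *lys-10* from -1.12 to 1.01. For the interaction, *lys-3* ranged from -1.96 to 0.74, *lys-4* from -0.49 to 0.50, *lys-5* from -0.75 to 0.25, *lys-7* from -0.78 to 0.071 and *lys-10* from -0.45 to 1.77. The cause of these changes was not tested. *lys-9* had too few counts for the filter. *lys-3*, *lys-5*, *lys-6* and *lys-10* had at most 2091 counts in a group, and the other tested members at least 12821.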
